A study of Eucalyptus grandis
Pisolithus microcarpus and Eucalyptus grandis with 23 samples.

Results

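The roots described here are the 6 uninoculated control libraries of Eucalyptus grandis kept at 400 ppm CO2, out of 23 libraries in all, taken as libraries 1 to 3 and libraries 4 to 6 by the number in their titles. Both sets carry the same labels, control root with no fungus at 400 ppm, so their comparison asks how far untreated roots of the same CO2 level differ from each other. Seedlings of 1 month were grown without fungus in Petri dishes for 1 month at 30 °C by day and 22 °C by night, and RNA of the roots was sequenced. The study also holds 5 control libraries at 650 ppm and 3 libraries of each of 4 ectomycorrhizal groups, with Pisolithus microcarpus strain SI-9 or SI-12 at 400 or 650 ppm, which carry the fungus that the controls lack. How many seedlings a library holds, whether they came from 1 seed lot, and whether the sets were grown together is not stated in the labels. The deposited names number the libraries of the first set 4 to 6 and those of the second 16 to 18, so a difference between sets cannot be told apart from one of library number.

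Eucalyptus grandis is a fast growing plantation tree, and its fine roots take up water and mineral nutrients and can be sheathed by ectomycorrhizal fungi such as Pisolithus. Control roots are the baseline against which the effect of CO2 and of each fungal strain is read. The tables give genes by ID and do not pair them with names or functions, and 0 of the 36376 IDs occur in the RefSeq gene table used here (assembly ASM1654582v1), so the genes named below carry no role and the tissue could not be checked against marker genes. In the naming of these gene models the letter after the prefix stands for a chromosome, A to K, or for scaffolds not placed on one, L, and the numbers follow the order of the genes along it.

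Gene reads ran from 24722728 to 30210474 in libraries 1 to 3 and from 13570653 to 21217186 in libraries 4 to 6, so every library of the second set was shallower. Genes with at least 1 CPM (the library-size scaled count, here with TMM factors) numbered 22307 to 22356 in the first set and 22366 to 22449 in the second. The share of gene reads with a single matching gene was 96.01% to 96.43% in the first set and 95.88% to 96.05% in the second. A level that rests on 3 reads corresponds to 0.0981 to 0.119 CPM in a library of the first set and 0.141 to 0.221 CPM in one of the second.

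Pairs of libraries were compared over the genes that averaged at least 10 CPM in a pair, 13667 to 13770 of them for these 6 libraries. Inside libraries 1 to 3, 1 to 5 of these genes differed over 2-fold, and inside libraries 4 to 6, 3 to 7 did. Between the sets 942 to 1019 genes did, which is 6.85% to 7.41%. No pair across the sets came near a pair inside one. The mean chi-square per gene was 3.85 to 5.89 inside the sets, where counting alone would give 1, so no libraries of a set were the same counts deposited again, and 55.5 to 74 between them. The labels call the 6 libraries biological replicates, yet nothing says that those of a set came from separate seedlings, and the p-values below then measure the spread inside sets, which may be technical.

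The same measure places this difference among those of the study. Control roots of the 650 ppm sets, libraries 1 and 2 with 3 to 5, differed over 2-fold in 3.35% to 3.53% of genes. Across CO2 levels the control libraries differed in 9.86% to 15.4%. From SI-9 roots at 400 ppm libraries 1 to 3 differed in 6.72% to 9.24% of genes and libraries 4 to 6 in 7.43% to 12.1%. The low end of both ranges belongs to SI-9 library 2. Against it the shares were 6.72% to 6.81% for libraries 1 to 3, and against SI-9 libraries 1 and 3 they were 8.45% to 9.24%, above every pair across the ambient sets. Libraries of the same mycorrhizal group could also differ. Inside SI-9 at 400 ppm the shares were 0.211% to 3.23%, and inside SI-9 at 650 ppm the pairs that include library 3 reached 7.55% and 7.71%, above every pair across the ambient sets. Against SI-12 roots at 400 ppm the shares were 11.6% to 12.6% for libraries 1 to 3 and 10.3% to 11.9% for libraries 4 to 6.

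**Figure D1:**
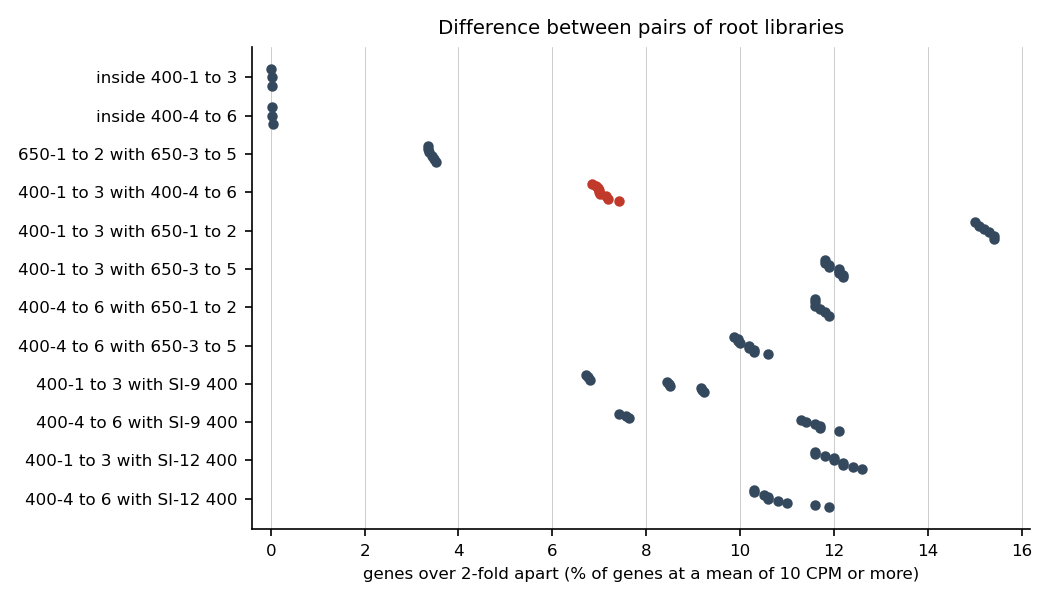
Each point is a pair of libraries, and the x axis gives the percentage of genes at a mean of at least 10 CPM that differ over 2-fold. Pairs across the ambient control sets (red) lie at 6.85% to 7.41%, pairs inside a set near 0, and pairs with SI-9 roots at 400 ppm at 6.72% to 9.24% for libraries 1 to 3 and 7.43% to 12.1% for libraries 4 to 6.

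Gene by gene, 12524 of 27593 tested genes (45.4%) differed between the sets at an adjusted p under 0.05 in edgeR's quasi-likelihood test, fitted to the 11 control libraries with 1 mean per set. In libraries 4 to 6, 6426 genes (23.3%) were higher and 6098 (22.1%) lower. TMM factors centre the fold changes, and the median log2 fold change over all tested genes was 0. The near-even balance is therefore not a result about the roots. With upper quartile factors it was 6179 higher and 6417 lower. Of the 12524 called genes, 11837 had CPM that did not overlap between the sets, as did 14372 (52.1%) of all tested genes. In root tissue as a whole, fewer cells of a type and less RNA per cell cannot be told apart. Many differences were small. The median absolute log2 fold change of the called genes was 0.73, and 5267 of them (42.1%) lay within 1.5-fold. Over 2-fold were 4851 genes (17.6% of those tested), 2548 higher and 2303 lower. Over 10-fold were 1075, and over 100-fold 209.

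The count depends on what is taken as the spread and on the size of difference tested. With all 23 libraries in the fit 8031 genes were called. With the spread unchanged, 2740 were called when the test was against a 2-fold minimum. With the libraries of a set summed, which leaves 1 sum per ambient set and takes the spread from the 2 sums at 650 ppm, edgeR called 279 (166 higher, 113 lower), with 4408 at an unadjusted p under 0.05. That test assumes that a lone ambient sum varies like the sums at 650 ppm. All libraries 4 to 6 were shallower than libraries 1 to 3, and with each control library thinned to the smallest total, 9482961 reads, 10701 genes were called.

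**Figure D2:**
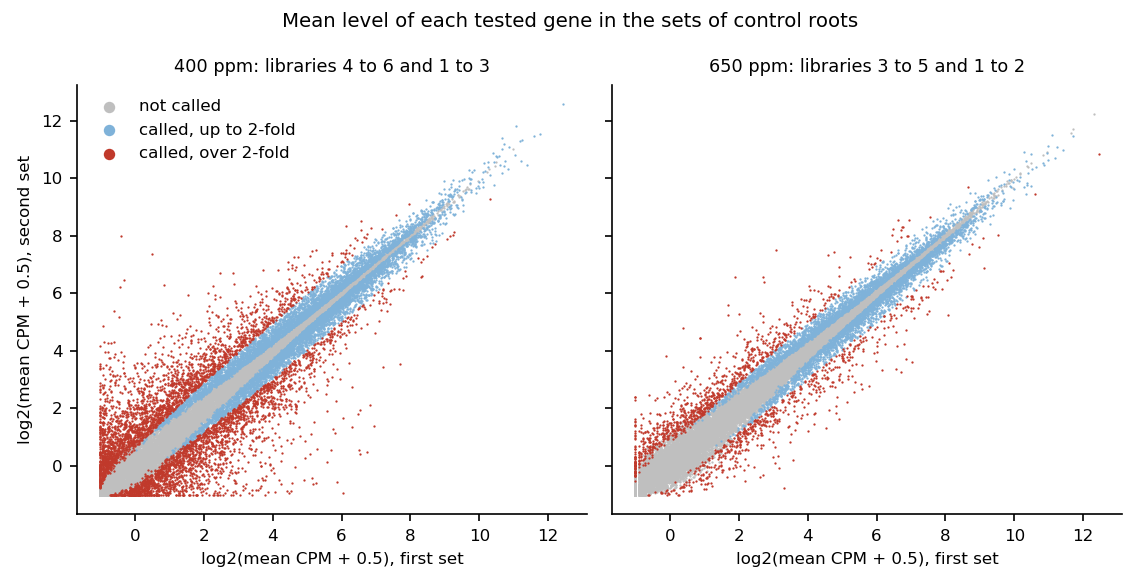
Each point is a tested gene, placed by the log2 of its mean CPM plus 0.5 in the first set (x axis) and the second set (y axis) of control roots, at 400 ppm on the left and 650 ppm on the right. Red genes are called and over 2-fold apart, 4851 at 400 ppm and 1499 at 650 ppm, and most of them are of low level.

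Small and large called differences fell on genes of different level. In genes with few reads only large differences can pass the test, so the classes also differ in what could be called. Of the 40 genes at a mean of 1000 CPM or more over the 6 libraries, 35 were called, 21 higher and 14 lower, and 0 were over 2-fold apart. At 100 to 1000 CPM 62.3% of genes were called and 2.76% were over 2-fold apart. At 1 to 10 CPM 45.6% were called and 27.8% were over 2-fold apart, and under 1 CPM 29.5% were called, nearly all of them over 2-fold. Genes over 2-fold apart therefore held a small part of the RNA, between 4.4% and 4.54% of the gene reads of a library, while all called genes held 59.7% to 60.5%. Of the 100 most abundant transcripts of each set, 83 were shared.

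The most abundant transcript was the same in both sets. Eucgr.B02368.1 stood at 5477, 5695 and 5484 CPM in libraries 1 to 3 and at 6393, 6071 and 5856 CPM in libraries 4 to 6. The second set was higher without overlap, but the log2 fold change was 0.14 (SE 0.03, adjusted p = 6.79e-05). Its share of the gene reads was 0.555% in library 1, with an exact 95% binomial interval of 0.552% to 0.557%, and 0.641% (0.637% to 0.645%) in library 4. Copies made in amplification are not separate molecules, so these intervals describe the error of counting and no other.

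The gene with the largest gain in CPM in libraries 4 to 6 was Eucgr.A01262.1. It had 2130, 2270 and 2020 CPM in libraries 1 to 3 and 3650, 3650 and 3500 CPM in libraries 4 to 6. The log2 fold change was 0.75 (SE 0.03, adjusted p = 7.43e-20). At 650 ppm it showed no such split, with 3280 and 3340 CPM in libraries 1 and 2 and 3130 to 3510 CPM in libraries 3 to 5 (adjusted p = 0.92). The first ambient set thus stood below every other control library, and the second overlapped the 650 ppm libraries in 1 of its 3 libraries, at 3500 CPM, and lay above them in the others.

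The largest loss in CPM was that of Eucgr.F02872.1. Its level was 2720, 2700 and 2620 CPM in libraries 1 to 3, and 1420, 1350 and 1440 CPM in libraries 4 to 6. The sets did not overlap (log2 fold change -0.93, SE 0.03, adjusted p = 2.64e-24). In the 650 ppm controls the split ran the other way, from 404 and 394 CPM in libraries 1 and 2 to 814, 827 and 848 CPM in libraries 3 to 5 (log2 fold change 1.06, adjusted p = 7.9e-23). Every ambient control library stood above every control library at 650 ppm, but the ratio to them depended on the set. The calls of this gene and of Eucgr.A01262.1 at 400 ppm were lost with summed libraries, with adjusted p-values of 0.52 and 0.21, and against a 2-fold minimum, since both differed by less than 2-fold.

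The largest fold changes belonged to genes that had reads in one set and none in the other. Eucgr.J01742.1 had 0 reads in libraries 1 to 3 and 203, 202 and 147 reads in libraries 4 to 6, or 12.8, 9.47 and 10.8 CPM. Taking 3 counts over the first set as its upper limit, it was at least 304-fold higher in the second (adjusted p = 6.86e-16). None of the 5 control libraries at 650 ppm had a read of it, nor any mycorrhizal library at 400 ppm. Of the other libraries, SI-9 libraries 1 and 2 at 650 ppm reached 12.2 and 12.6 CPM, library 3 of that group had 0, and 1 SI-12 library stood at 0.0506 CPM.

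Eucgr.L02796.1 showed the reverse. It had 343, 382 and 361 reads in libraries 1 to 3, or 11.2, 14.3 and 14.3 CPM, and 0 in libraries 4 to 6, at least 224-fold lower there (adjusted p = 1.01e-16). All control libraries at 650 ppm were at 0. SI-9 roots at 400 ppm had 10 to 11.7 CPM, SI-12 roots at 400 ppm 12.8 to 16.4 CPM, and SI-9 libraries 1 and 2 at 650 ppm 13.4 and 14.3 CPM, whereas library 3 of that group and the SI-12 roots at 650 ppm lay between 0 and 0.166 CPM. Across the 23 libraries Eucgr.L02796.1 was either near 10 to 16 CPM or close to 0, with no level in between.

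**Figure D3:**
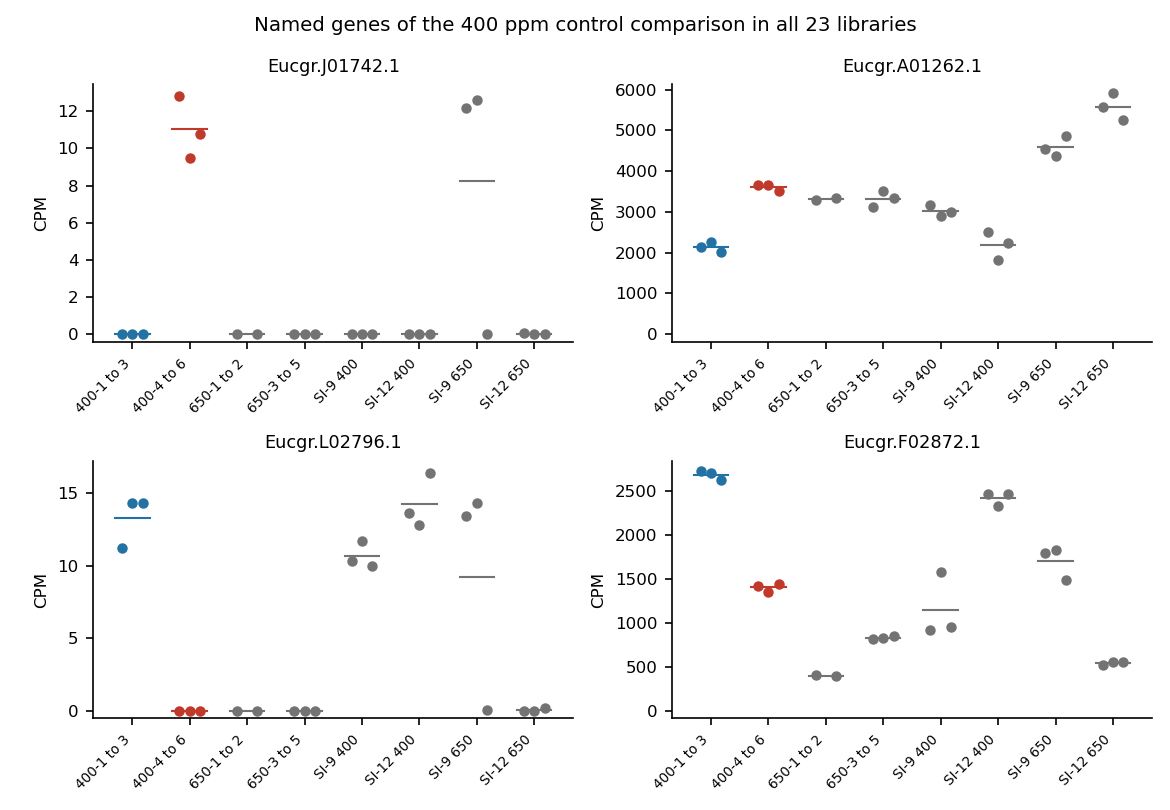
CPM (y axis) of 4 genes in all 23 libraries by group, with points for libraries and lines for group means; blue marks ambient control libraries 1 to 3 and red libraries 4 to 6. Eucgr.J01742.1 and Eucgr.L02796.1 are at 0 in one ambient set and at 9.47 to 14.3 CPM in the other, and Eucgr.A01262.1 and Eucgr.F02872.1 differ between the sets by less than 2-fold.

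In all, 74 of the 36376 genes (0.203%) had no read in any library of one ambient set and at least 1 CPM in each library of the other. Libraries 1 to 3 held 34 of them and libraries 4 to 6 held 40. Every library of the second set was shallower, so having no read was easier to meet there. The counts of 34 and 40 are therefore not comparable. The levels of the 74 genes were low, with a median of 2.75 CPM in the set with reads and 6 genes at 10 CPM or more. Inside a set such a split between libraries was found for 0 genes among libraries 1 to 3 and for 6 among libraries 4 to 6. Depth limits the comparison of these counts in the same way. The number of 74 rests on the limits, with 15 genes when presence asks for 5 CPM and 118 when up to 1 read counts as absence. The 74 genes were shorter than those at 1 CPM or more in all 6 libraries, with median lengths of 1039.5 and 1596 bases. At least 90% of the reads matched 1 gene only for 56.8% of them against 83.5%, and 24.3% against 4.19% carried the letter L. For genes under 90%, reads shared with a similar gene leave the count uncertain. The genes at 1 CPM or more in all 6 libraries were not matched to the 74 by level. Length, share of matching reads and letter therefore cannot be told apart from traits of low-level genes.

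Reads of these genes were found in some other libraries and not in others. Of the 74, 0 were without reads in all 17 other libraries and 3 were at 1 CPM or more in all of them. At 650 ppm 20 were at 1 CPM or more in every control library and 12 were without reads in all 5. Among the other 6 groups and sets, 45 genes were at 1 CPM or more in every library of at least 1 of them. Of the 74, 40 were without reads throughout at least 1, and 21 met both conditions. Such counts were not made over other genes of like level. Low-level genes can also lack reads in shallow libraries, such as SI-9 library 1 at 400 ppm with 4497662 gene reads. The counts therefore cannot be read as a trait of the 74 genes. Between the 650 ppm sets 12 genes had no read in libraries 1 and 2 and at least 1 CPM in libraries 3 to 5, and 0 the other way round. At 650 ppm libraries 1 and 2 had 12150209 and 9482961 gene reads, and libraries 3 to 5 had 24056827 to 29817856. Having no read was thus easier to meet in libraries 1 and 2, and the counts of the 2 directions are not comparable. None of the 74 genes was among the 12.

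**Figure D4:**
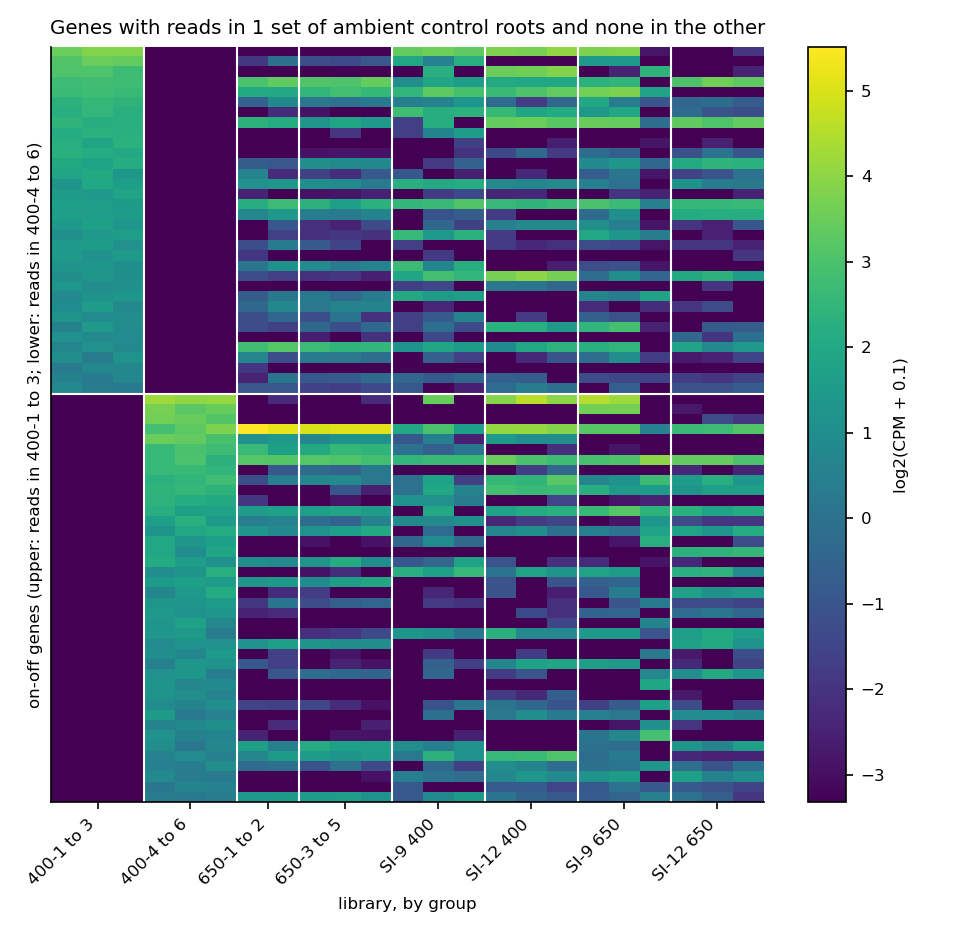
Each row is 1 of the 74 genes with reads in 1 ambient control set and none in the other, each column a library, and the colour the log2 of CPM plus 0.1. In the other 17 libraries the same genes are partly at 0 and partly at the level of the set with reads, often alike within a group.

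The genes over 2-fold apart were unevenly spread over the gene models. By letter, 25.9% of the tested genes of E and 22.1% of those of C were called and over 2-fold apart, against 12.4% to 18.6% for the other chromosomes and 32% for the unplaced scaffolds of L. At 650 ppm the same letters gave 5.6%, 4.78% and 6.25%, inside or close to the range of the others. Letters C, E and L also stood highest when only genes at 1 CPM or more with at least 90% of reads matching 1 gene were counted, at 15.5%, 17.8% and 31.5% against 8.68% to 12.7%.

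Within letters the genes gathered in stretches. The windows of 250 consecutive ID numbers were drawn after the letters had been seen, and 168 of them hold at least 50 tested genes. Their median share over 2-fold apart was 15.5%, with a range of 5.42% to 56.2%, and 15 windows reached 30% or more, of which 6 belong to E, 4 to C and 5 to other letters. In the window of E numbers 2000 to 2249, 59 of 105 genes were over 2-fold apart, 26 higher and 33 lower in libraries 4 to 6. In that of E numbers 2500 to 2749 it was 52 of 102, 21 higher and 31 lower. Both directions thus occurred within the same window. The same windows had 2.86% and 3.92% at 650 ppm, where the highest of the 168 windows reached 10.6%. Of their tested genes 27.6% and 34.3% were under 1 CPM, and 53.4% and 40.2% had under 90% of reads matching 1 gene. Such genes were then left out, a restriction also chosen after the letters had been seen. Of the remaining genes, 15 of 35 (42.9%) and 20 of 40 (50%) were over 2-fold apart, against 10.45% in the median window. Both windows were picked as the highest of the 168, and the remaining genes are part of those counted before. A share above the median is therefore no separate result.

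**Figure D5:**
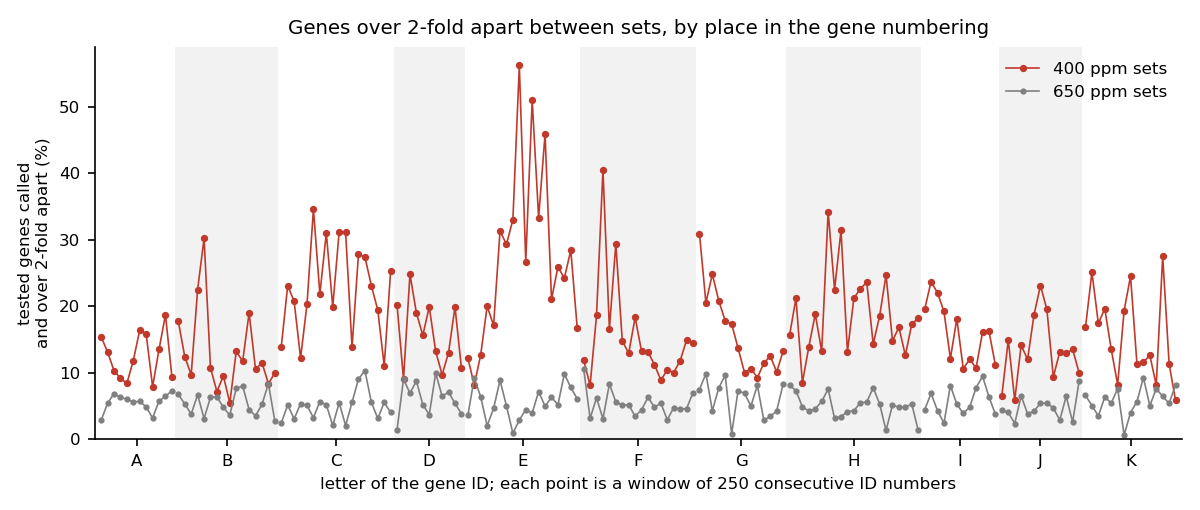
Share of tested genes called and over 2-fold apart (y axis, percent) in windows of 250 consecutive ID numbers, in order within letters A to K (x axis), for the ambient sets (red) and the 650 ppm sets (grey). The ambient sets peak at 56.2% within E, and the 650 ppm sets stay at or under 10.6%.

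Genes next to each other in the numbering tended to differ alike. Across 18585 pairs with consecutive numbers on chromosomes the log2 fold changes correlated with r = 0.19, across pairs 10 numbers apart with r = 0.03 and across pairs 100 numbers apart with r = 0.003. Pairs in which at least 90% of the reads of both genes matched 1 gene gave r = 0.18 for consecutive numbers. Between the 650 ppm sets r was 0.07 for consecutive numbers, 0.007 at 10 numbers apart and 0 at 100, so likeness of neighbours was weaker there but not absent. Where both neighbours were over 2-fold apart, 616 of 811 pairs moved in the same direction, 76%, against 233 of 482 at 100 numbers apart. These are descriptions across genes of the same 6 ambient libraries, or of 5 at 650 ppm, which are not independent replicates.

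The 650 ppm control libraries were then split the same way, since they share no library with the ambient ones. Between libraries 3 to 5 and libraries 1 and 2, 6207 genes (22.5%) were called, 3176 higher (11.5%) and 3031 lower (11%), and 1499 (5.43%) were called and over 2-fold apart. The CPM of the sets did not overlap for 13308 tested genes (48.2%). With fewer libraries such a split is met more easily, and the share called depends on their number and depth. Neither share is directly comparable with that at 400 ppm. The balance of directions moved with the scaling, to 3710 higher and 2533 lower with library totals alone and to 3037 and 3205 with RLE factors. With all 23 libraries in the fit 2559 were called, and 393 against a 2-fold minimum. Of the 12524 genes called at 400 ppm, 3709 (29.6%) were also called at 650 ppm, which is 59.8% of the calls there. The sets were ordered by library number at both CO2 levels, and nothing in the labels ties ambient libraries 4 to 6 to libraries 3 to 5 at 650 ppm. In this order 1227 of the 3709 genes had the same sign and 2482 (66.9%) opposite signs, and in the other order these counts would change places.

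At 650 ppm Eucgr.B01584.1 fell from 5930 and 5280 CPM in libraries 1 and 2 to 1570, 1990 and 1940 CPM in libraries 3 to 5 (log2 fold change -1.61, SE 0.09, adjusted p = 5.71e-17), a call lost with all 23 libraries in the fit (adjusted p = 0.089). In the ambient sets it had 1860 to 2130 CPM and 1620 to 2470 CPM, which overlap. Eucgr.J00237.1 was higher in libraries 3 to 5, at 2770, 3080 and 2940 CPM against 2130 and 2240 CPM (log2 fold change 0.42, adjusted p = 2.01e-11), and lower in ambient libraries 4 to 6 than in 1 to 3 (log2 fold change -0.25, adjusted p = 5.16e-08). Eucgr.H01268.1 had no read in libraries 1 and 2 and 4.74, 4.66 and 4.91 CPM in libraries 3 to 5, at least 33.5-fold higher (adjusted p = 3.04e-10). In the ambient controls it was lower in the second set, at 0.281 to 0.38 CPM against 2.39 to 3.33 CPM (adjusted p = 6.95e-09). Eucgr.I02327.1 had 5.75 and 5.42 CPM in libraries 1 and 2, 0.0706 to 0.401 CPM in libraries 3 to 5 (adjusted p = 2.14e-06) and no read in any ambient control.

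Whether the split differed between CO2 levels was tested in the same fit, again with the sets ordered by library number. In this order the difference between sets was not the same at 400 and 650 ppm for 10889 genes (39.5%), 5449 with a more positive difference at 400 ppm and 5440 with a more negative one (19.7% each), and 5392 (19.5%) differed over 2-fold. With the 650 ppm sets in the other order the count was 9154, 4928 more positive and 4226 more negative. With all 23 libraries in the fit it was 6526, and 2846 against a 2-fold minimum. Across the 27593 genes the differences at both CO2 levels correlated with r = -0.06 and rho = -0.12, signs that also turn with the order.

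Mycorrhizal roots give further comparisons with no shared library, and in their deposited names the SI-9 libraries carry lower numbers (1 to 3 and 7 to 9) than the SI-12 libraries (13 to 15 and 19 to 21), but strain and number cannot be told apart there. Among the 4851 genes over 2-fold apart in the ambient controls, the sign was the same in 43.6% for the 650 ppm controls in the order above, in 54.4% for SI-12 minus SI-9 at 400 ppm and in 41.9% for SI-12 minus SI-9 at 650 ppm. Without SI-9 library 2 the share at 400 ppm was 54.5%. Over all tested genes the corresponding shares were 45%, 53.5% and 45.1%. The shares of the genes over 2-fold apart thus lay close to those of all tested genes.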

How the data were processed

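The authors deposited, per library, the count of unique and of total gene reads and an RPKM for each of 36376 genes, with a gene length in bases. The file headers of 2 control libraries at 650 ppm name trimmed read pairs as the input of an RNA-Seq step. The aligner, the build and the use of strand are not named in the sources used here, so overlapping and antisense genes cannot be told apart. The deposited RPKM was not used.

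Total gene reads were tested with edgeR 4.0.16 (limma 3.58.1, R 4.3.3), 2-sided: TMM factors, filterByExpr by set, quasi-likelihood test, Benjamini-Hochberg at 0.05, 3 comparisons from 1 fit of 11 control libraries with 7 residual degrees of freedom. The mycorrhizal groups, some of whose libraries stand apart, entered an alternative. CPM of control libraries use the TMM factors of this fit, and CPM of mycorrhizal libraries those over all 23 libraries; each SE was taken from the fold change and its F statistic. DESeq2 1.42.0 was an alternative, and figures used matplotlib 3.10.9. On simulated data with 200 changed genes among 27593, the test of the ambient sets recovered 0.5 of genes changed 1.5-fold, 0.7 of those changed 2-fold and 0.86 of those changed 4-fold, with 8 false calls. Each simulated library varied independently with the spread inside sets. Variation shared by the libraries of a set was not simulated, so the 8 false calls do not cover it.

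The sets, classes and the rule for named genes were chosen with earlier results of these data known. That rule takes called genes with no overlap, at least 1 CPM in the higher set and at least 90% of reads matching 1 gene, and names in each direction the gene with the largest fold change and that with the largest CPM difference, without the overlap condition for the difference between CO2 levels; it also names the most abundant transcript. Gene lists and cell type markers needed gene descriptions and were not applied.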

Additional observations from a re-analysis of the deposited data

Results flagged for a closer look

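With the sets ordered by library number, the split between control sets differed between 400 and 650 ppm in 10889 genes by the test of the difference itself. The labels do not match the sets across CO2 levels, so this order is arbitrary, and in the other order the count was 9154. In Eucgr.F02872.1 the difference of the log2 fold changes was -1.99 with an SE of 0.05 (adjusted p = 5.61e-28), and all libraries 4 to 6 at 400 ppm lay below libraries 1 to 3 while all libraries 3 to 5 at 650 ppm lay above libraries 1 and 2. With the 650 ppm sets in the other order it was 0.12 (adjusted p = 0.0346). In Eucgr.B01584.1 it was 1.64 with an SE of 0.12 (adjusted p = 5.57e-14), with -1.59 in the other order, and the adjusted p was 0.139 with all 23 libraries in the fit. In Eucgr.D01479.1 the fitted difference was 12.81 (adjusted p = 0.000292). This gene had 2.66, 2.16 and 2.36 CPM in ambient libraries 4 to 6, none in libraries 1 to 3, and at most 0.108 CPM at 650 ppm, so the fitted size depends on how counts near 0 are treated. In Eucgr.D00871.1 it was -12.89 (adjusted p = 0.000234), with 4.38, 4.9 and 4.75 CPM in ambient libraries 1 to 3, none in libraries 4 to 6, and 0.166 CPM in 1 library at 650 ppm. The calls of Eucgr.D01479.1 and Eucgr.D00871.1 were lost in the other order (adjusted p = 1 for both), and that of Eucgr.D00871.1 also when control library 4 at 650 ppm, the one with reads, was left out.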

How the results depend on the processing

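With all 23 libraries in the fit the counts of called genes were 8031 at 400 ppm, 2559 at 650 ppm and 6526 for the difference between them, and against a 2-fold minimum 2740, 393 and 2846. Summed libraries gave 279 at 400 ppm. Genes with reads in 1 ambient set numbered 15 with presence at 5 CPM and 118 with absence at up to 1 read. Other scaling factors, filters, DESeq2, unique gene reads, thinning and fits of 1 CO2 level kept the counts within 1.5 times. Leaving out each library gave 11027 to 11713 at 400 ppm, 4273 to 5459 at 650 ppm and 9413 to 10744 for the difference; where 1 library remains in a set at 650 ppm, it is assumed to vary like the others. With the 650 ppm sets in the other order, an alternative added after seeing the data, the difference was called in 9154 genes, the fitted differences of Eucgr.B01584.1 and Eucgr.F02872.1 changed sign to -1.59 and 0.12, and Eucgr.D01479.1 and Eucgr.D00871.1 lost the call. Of 223 values of named genes under all these alternatives, 210 kept their direction and call, 11 lost the call and 2 changed direction. The other calls lost were Eucgr.B01584.1 in the 23-library fit at 650 ppm and for the difference, Eucgr.A01262.1 and Eucgr.F02872.1 with summed libraries, these and Eucgr.J00237.1 against a 2-fold minimum, and Eucgr.D00871.1 when thinned and without control library 4 at 650 ppm. The causes were not tested. No paired analysis was possible because the sets compared carry different replicate numbers. At this depth, levels under 0.0981 to 0.221 CPM rest on fewer than 3 reads in an ambient control library.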

Other observations

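The 650 ppm controls were placed against both ambient sets for the 4666 genes that were called, over 2-fold apart and without overlap between these sets. All 5 libraries at 650 ppm lay above all 6 ambient ones for 574 genes (12.3%) and below them for 361 (7.74%). Over all 27593 tested genes these shares were 14.8% and 13.7%. For 581 genes (12.5%) all 5 lay in the gap between the ambient sets, so that the sign of the difference from 650 ppm was opposite for the sets. The 4666 genes were selected for such a gap. Libraries can therefore fall in it more easily, and outside all 6 ambient ones less easily, than for other genes. On the scale of log2(CPM + 1), the mean at 650 ppm was nearer to libraries 4 to 6 for 2662 genes and nearer to libraries 1 to 3 for 2004. Neither the gap nor the nearer set was counted over all tested genes.

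Among SI-9 roots at 650 ppm, libraries 1 and 2 held the 34 genes found in ambient libraries 1 to 3 and not in 4 to 6 at medians of 0.27 and 0.291 of the ambient level, and library 3 at 0.0136. For the 40 genes found in ambient libraries 4 to 6 and not in 1 to 3, the medians were 0.22 and 0.271 in libraries 1 and 2 and 0.0795 in library 3. Library 3 was thus the lowest of this group for both lists. For the 40 genes, some libraries of other groups had lower medians.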
